A study of Mus musculus with 18 samples.

Results

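T23 mouse prostate tumour cells grown with fibroblasts that lack Sparc were compared with T23 cells grown alone. The comparison rests on the 6 libraries whose labels name these conditions, 3 of each, out of 18 in the series, and covers all genes. The label of T23 cells alone names no fibroblast and no drug. The co-culture label adds SPARC-deficient fibroblasts and again no drug. Neither label gives the origin or number of the fibroblasts, how the deletion was made, how long the cells were together, or whether the cell types were separated before RNA was taken. A further 3 libraries of T23 cells with wild-type fibroblasts, whose titles call those fibroblasts FIBROB6, serve as reference. The series title concerns loss of stromal SPARC and neuroendocrine differentiation of prostate cancer. The comparison asks which transcripts change when Sparc-deficient fibroblasts are added, so it joins the presence of fibroblasts with their genotype.

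SPARC (osteonectin) is a secreted, calcium-binding glycoprotein of the matricellular class, which bind collagen, growth factors and cell surfaces without forming fibres of their own. It chaperones fibrillar collagens during their assembly and modulates growth factor signalling and adhesion. In tumours it is often made by stromal cells. Cells read signals from the stroma through cytokine receptors, such as those that share the gp130 subunit and signal through STAT3, and through integrins and growth factor receptors. Immediate-early transcription factors of the AP-1 and EGR families are among the earliest genes to respond.

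Library totals were 19.7 to 22.4 M counts for T23 cells alone, 20.3 to 22.8 M with Sparc-deficient and 18.8 to 24.9 M with wild-type fibroblasts. Levels are given as normalised CPM (counts per M counts, after scaling by TMM), in the order of replicates 1 to 3. The labels do not say whether replicates were separate cultures. The p-values set each change against the spread between replicates, estimated from all 18 libraries of the series, and that spread may be technical. On the leading principal component of the 9 drug-free libraries (29.8% of the variance) the Sparc-deficient co-cultures lay between 16.9 and 22.9, and the other 6 libraries between -12.6 and -7.49. Genes of the mitochondrial genome took 0.944, 1.68 and 1.64% of the counts in the Sparc-deficient co-cultures and 0.824 to 1.11% in T23 cells alone, so replicates 2 and 3 stood apart from the rest here. Replicate 1 in turn differed more from each of the others (chi-square over degrees of freedom 7.98 and 9.34) than those did from each other (3.86).

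In these bulk samples, a change in the share of a cell type and a change in RNA per cell cannot be told apart. Sparc itself (chromosome 11, 55394500 to 55423183) was at 3208, 3192 and 3191 CPM in T23 cells alone and 3101, 3016 and 2977 CPM with Sparc-deficient fibroblasts. All 3 co-culture values were lower, by less than the test could call (log2 -0.08 ± 0.05, adjusted p 0.351). Because T23 cells express Sparc strongly, this level does not test the fibroblasts' genotype. Of 30 listed fibroblast markers, 25 averaged at least 1 CPM in T23 cells alone, and their summed level was 33727 to 35039 CPM alone and 35155 to 35804 CPM in the Sparc-deficient co-culture. Of 25 tested, 7 were called higher and 2 lower (4 higher and 1 lower without Sparc-deficient or T23 alone replicate 3). The fibroblast genes Lum and Pi16 had at most 3 counts per library in these 6, and Tcf21 had 0. The series has no library of fibroblasts alone, so whether these fibroblasts express such genes is not known. Xist and the listed Y-linked genes had at most 1 count per library. Whether fibroblast RNA takes part in any change below was not tested. Leukocyte markers summed to 15.3 to 17.8 CPM alone and 18.1 to 19.9 CPM in co-culture, with 13 of 24 at 0 in both groups, and Ptprc at 0 to 4 counts. Their part in the changes was not tested.

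Of 13600 genes tested, 1325 (9.74%) were called at an adjusted p under 0.05, 829 of them higher in the co-culture (6.1%) and 496 lower (3.65%). The counts of called genes given for each list below are to be read against these shares. Most changes were small. The median fold was 1.27 among genes called higher and 1.26 among those called lower, and 386 of the former and 236 of the latter changed by less than 1.25-fold. At least 2-fold changes numbered 105 (0.772%), 57 higher (0.419%) and 48 lower (0.353%). The groups did not overlap for 821 of the 829 genes called higher and 495 of the 496 called lower, against 4455 of all genes tested (32.8%). Among the 81 genes with a mean of at least 1000 CPM, 18 were called, all of them higher. Between 100 and 1000 CPM, 244 were called higher and 80 lower. No gene went from 0 counts in all 3 libraries of a group to at least 5 in each of the other. The count of calls fell to between 743 (without T23 alone replicate 2) and 1003 (without Sparc-deficient replicate 1) when any of the 6 libraries was left out. None of the 1325 calls changed sign in any of the alternatives tried.

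**Figure D1:**
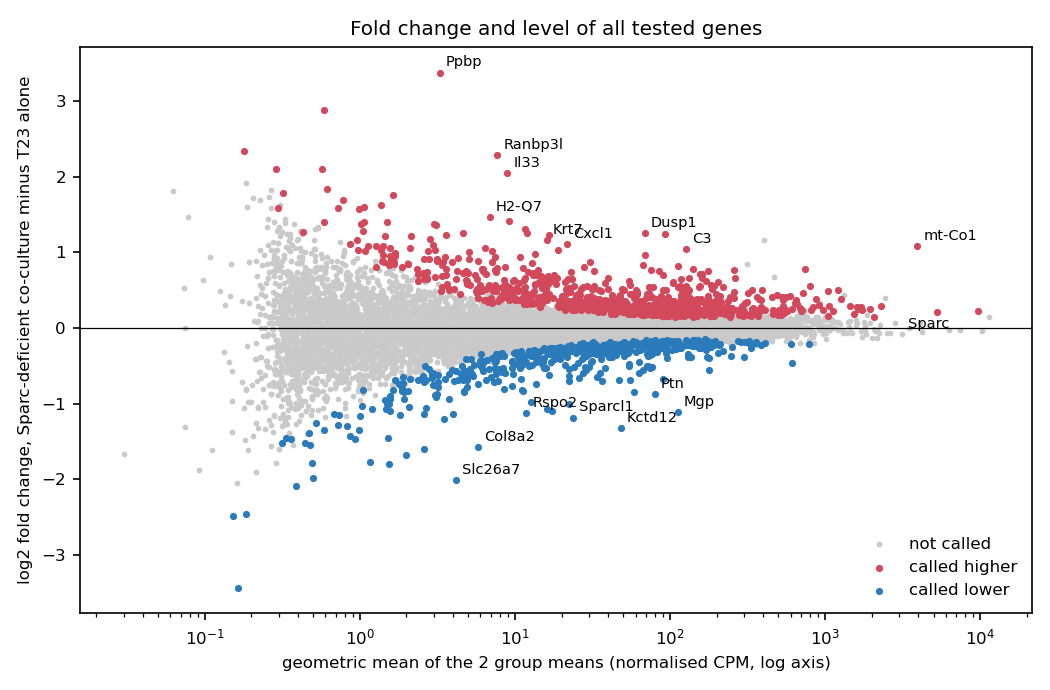
Each point is a tested gene, with its level on the x axis (geometric mean of both group means in normalised CPM, log axis) and its log2 fold change, Sparc-deficient co-culture minus T23 alone, on the y axis. Red points are the 829 genes called higher and blue points the 496 called lower. Ppbp lies at the top at a low level, and all 18 called genes with a mean of at least 1000 CPM lie above 0.

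The gene with the largest increase was that of a secreted inflammatory mediator, a chemokine precursor. Ppbp (ENSMUSG00000029372, chromosome 5, 90768518 to 90770063) encodes the precursor of the chemokine CXCL7, which attracts neutrophils through CXCR2. It stood at 1.25, 1.04 and 0.740 CPM in T23 cells alone and at 12.8, 8.67 and 10.4 CPM with Sparc-deficient fibroblasts. Every co-culture library was far above every library of T23 cells alone, a 10.4-fold increase (log2 3.38 ± 0.23, adjusted p 1.22e-09). Its raw counts were 15 to 29 alone and 176 to 280 in co-culture. Ppbp is best known from platelets. Among 12 listed platelet and megakaryocyte markers, Gp6 and Gp9 had 0 counts in all 6 libraries and Pf4 had 0 except in 1 co-culture library. Other members were present in all 6 libraries and not called. These were Itga2b (192 to 253 counts), Gng11 (310 to 399) and, at a low level, Gp1ba (14 to 26). Summed marker levels, 27.5 to 29.8 CPM alone and 38.5 to 42.7 CPM in co-culture, differed mostly by Ppbp itself.

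The neighbouring gene Cxcl5 (ENSMUSG00000029371, chromosome 5, 90759360 to 90761624) encodes another CXCR2 ligand. It was rare, with 0.516, 0.0943 and 0.197 CPM alone and 1.60, 0.788 and 1.23 CPM in co-culture. Its groups did not overlap, but rested on 2 to 12 and 16 to 35 counts (log2 2.11 ± 0.46, adjusted p 0.00382). Cxcl1 (ENSMUSG00000029380, chromosome 5, 90891241 to 90893115), a neutrophil attractant of the same family, went from 15.3, 13.3 and 15.4 CPM to 36.2, 28.7 and 29.8 CPM. It was 2.15-fold higher in co-culture (log2 1.11 ± 0.12, adjusted p 6.15e-07), again without overlap. Of 15 chemokine genes tested, 5 were called higher and Ccl5 alone lower, with a median log2 fold change of 0.27 against -0.01 over all genes tested. The others called higher were Cxcl10 (log2 0.35), a T cell attractant, and Cxcl12 (0.24), the CXCR4 ligand made by many stromal cells. Without Sparc-deficient replicate 1 or 3, 3 chemokine genes were called higher and none lower. Cxcl12 and Ccl5 are among those that lost the call (adjusted p up to 0.076 and 0.098 over the alternatives).

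The 250 bases upstream of the Ppbp transcription start are shown, as Ppbp had the largest increase and its window holds 1 match to TGANTCA. This loose AP-1 pattern admits any middle base, here A. The match is in capitals, 198 bases from the start (RefSeq, build GRCm38.p6, chr5:90768268-90768517, plus strand).
Ppbp: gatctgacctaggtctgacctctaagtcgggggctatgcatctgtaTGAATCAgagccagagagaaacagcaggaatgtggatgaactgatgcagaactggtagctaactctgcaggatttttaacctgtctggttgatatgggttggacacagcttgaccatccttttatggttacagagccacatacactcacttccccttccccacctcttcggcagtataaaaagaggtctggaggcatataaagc
TGANTCA was found on either strand in 5.66% of the upstream windows of 10014 tested genes, in 8.86% of windows of genes called higher and in 8.49% of genes called lower. A match is a description of the letters and not of a bound site.

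Il33 (ENSMUSG00000024810, chromosome 19, 29925114 to 29960718), an alarmin of the interleukin-1 family held in the nucleus until cells are damaged, had 5.42, 3.40 and 4.29 CPM alone and 16.7, 19.4 and 18.5 CPM in co-culture. The lowest co-culture value was far above the highest value of T23 cells alone, and the increase was 4.14-fold (log2 2.05 ± 0.16, adjusted p 7.86e-09). Its receptor gene Il1rl1 was expressed at high level, 1575, 1547 and 1523 CPM alone, and rose to 1867, 1866 and 1924 CPM (log2 0.28 ± 0.05, adjusted p 0.000417). The receptor for interleukin-1 itself, Il1r1 (log2 0.35, adjusted p 0.00104), and the accessory chain shared by both receptors, Il1rap (0.28, 0.026), were also called higher. Of 10 interleukin-1 family genes tested, 5 were called higher and 1 lower, with a median of 0.18. Leaving out any of the 6 libraries left 3 or 4 called higher.

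Complement genes followed. C3 (ENSMUSG00000024164, chromosome 17, 57203970 to 57228136), the central component of the cascade, went from 89, 84.1 and 91 CPM to 175, 176 and 194 CPM, with the co-culture libraries close together and well above T23 cells alone (log2 1.04 ± 0.06, adjusted p 5.71e-11). C4b, a component of the classical and lectin pathways, rose from 10.7, 11.5 and 10.3 CPM to 26.8, 24.5 and 24.8 CPM (2.34-fold, adjusted p 3.02e-08). Masp1, a protease of the lectin pathway, was at 96.1 ± 8.41 CPM alone and 141 ± 7.11 CPM in co-culture (SD, n = 3; log2 0.56 ± 0.06). The soluble pattern-recognition gene Ptx3 had 48.6, 48 and 51.1 CPM alone and 99.95, 93 and 94.7 CPM in co-culture, and its p was among the 5 smallest of genes called higher (log2 0.96 ± 0.07, adjusted p 1.22e-09). In all, 4 of 10 complement genes tested were called higher and 1 lower. Sod3, which encodes the extracellular superoxide dismutase, rose 2.68-fold from 5.85, 6.23 and 4.79 CPM to 17.1, 13.1 and 15.1 CPM (adjusted p 1.55e-06), while among 27 antioxidant genes only Hmox1 was also called higher and Slc7a11 was called lower. Both of those lost their calls in some alternatives (adjusted p up to 0.2 and 0.07).

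**Figure D2:**
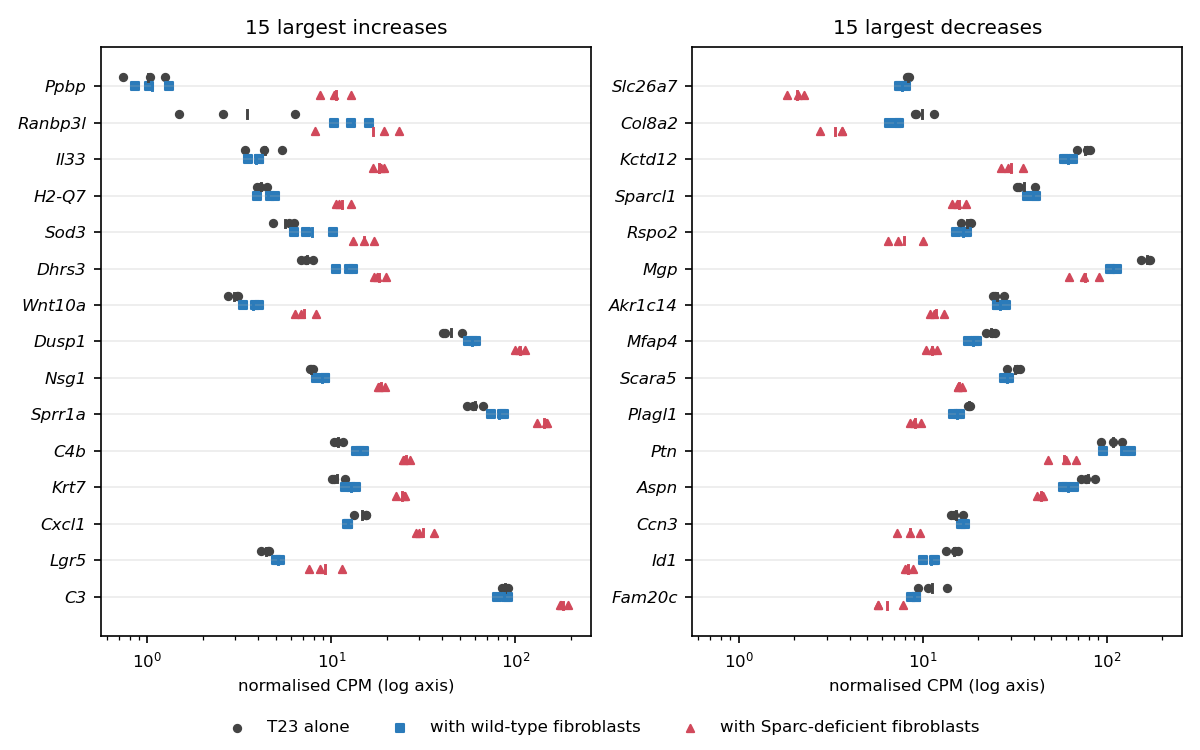
Normalised CPM (log axis) in each of the 9 drug-free libraries for the 15 genes with the largest increases and the 15 with the largest decreases against T23 alone, among called genes whose mean reached 5 CPM and whose groups were separate. Points are libraries and short bars are means of 3; the Sparc-deficient co-cultures (triangles) are separate from T23 alone (circles) throughout, by the rule that chose the genes, while the wild-type co-cultures (squares) overlap the Sparc-deficient ones for Ranbp3l and no other gene shown.

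Several receptors that feed the JAK-STAT pathway rose, as did Socs3, a feedback gene of STAT3. Osmr, the oncostatin M receptor chain, went from 109, 106 and 107 CPM to 172, 178 and 205 CPM, with no overlap between the groups (log2 0.79 ± 0.06, adjusted p 1.37e-09). Its partner Il6st, which encodes gp130, was at 634, 586 and 623 CPM alone and 786, 866 and 900.3 CPM in co-culture (log2 0.47 ± 0.06, adjusted p 8.88e-06). Lifr, the receptor chain for leukaemia inhibitory factor, was at 12.3 ± 1.08 CPM alone and 19.1 ± 1.48 CPM in co-culture (SD, n = 3; log2 0.64 ± 0.11). Il4ra and Il13ra1, chains of the interleukin-4 and interleukin-13 receptors, were higher by log2 0.82 ± 0.07 and 0.66 ± 0.08. The kinase gene Jak1 (0.17) and Stat3 (0.30 ± 0.04) were called higher with smaller changes. No ligand of the list was called, and Il6 stayed at 3 to 8 counts per library alone and 2 to 7 in co-culture, too few to be tested. Of 16 genes of this list tested, 7 were called higher and none lower, with a median log2 fold change of 0.16.

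Among STAT3-responsive genes, 8 of 17 tested were called higher and none lower, with a median of 0.30. Socs3, a feedback inhibitor of gp130 signalling, was at 64.2, 64.9 and 67.1 CPM alone and 115, 109 and 106 CPM in co-culture. Both groups were tight and far apart (log2 0.75 ± 0.07, adjusted p 6.09e-08). Cebpd, a transcription factor of the acute-phase response, rose from 16.1, 17.8 and 22.2 CPM to 30.8, 32.9 and 24.5 CPM (1.57-fold, adjusted p 0.0016). Hp, the acute-phase gene of haptoglobin, was low at 0.961 ± 0.289 CPM and 2.06 ± 0.436 CPM (SD, n = 3; log2 1.09 ± 0.28, adjusted p 0.014). The remaining genes called higher in this list were Fos, Junb, Hif1a, Vegfa and Pim1, all of which except Pim1 also stand in the immediate-early or hypoxia lists. Counts for both lists stayed within 6 to 8 when any of the 6 libraries was left out.

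The window upstream of Socs3 is shown as the STAT3 feedback gene of the list. It was the sole window among 13 gp130 and STAT3 genes called higher with a match to TTCNNNGAA (capitals), the STAT consensus, 146 bases from the RefSeq start (GRCm38.p6, chr11:117969367-117969616, minus strand). Bases just after this start were found on no GENCODE transcript of Socs3, unlike for the other windows shown. The start, and so the distance from it, is therefore uncertain.
Socs3: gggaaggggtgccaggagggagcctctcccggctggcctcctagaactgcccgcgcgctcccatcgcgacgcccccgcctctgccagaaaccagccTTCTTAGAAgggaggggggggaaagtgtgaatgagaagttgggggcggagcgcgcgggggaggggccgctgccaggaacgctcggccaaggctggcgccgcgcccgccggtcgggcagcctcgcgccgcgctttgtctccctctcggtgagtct
This motif was found in 7.18% of the windows of all tested genes, and 1 of 13 is 7.69%.

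Immediate-early genes were higher as well, though not as a class. Dusp1, a phosphatase that switches off MAP kinases, had the largest increase among them, from 40.6, 51.5 and 41.2 CPM to 113, 99.7 and 104 CPM, with every co-culture value far above every value of T23 cells alone (log2 1.25 ± 0.07, adjusted p 1.12e-10). The AP-1 gene Fos went from 3.70, 3.35 and 3.70 CPM to 7.07, 7.98 and 6.57 CPM (2.01-fold, adjusted p 6.15e-05), and Junb from 89.6, 89.1 and 103 CPM to 158, 157 and 127 CPM (log2 0.65 ± 0.11). Egr1 (112 ± 3.89 to 159 ± 21.7 CPM, SD, n = 3; log2 0.51), Ier2 (0.66), Ier3 (0.77) and Zfp36 (0.76), which encodes an RNA-binding protein that shortens the life of cytokine mRNAs, were called higher too. Klf4, a Krüppel-like factor, was called lower (61.6, 68.1 and 65.4 CPM alone, 47.7, 46.3 and 44 CPM in co-culture; log2 -0.50 ± 0.07, adjusted p 2.83e-05). In all, 8 of 24 tested were called higher and 1 lower, and the list's median of 0.06 lay close to that of all genes. Of 20 NF-kB target genes tested, 5 were called higher and 1 lower, with a median of 0.05. They included Ptgs2, the inducible cyclooxygenase, at 125, 115 and 126 CPM alone and 202, 187 and 209 CPM in co-culture (log2 0.71 ± 0.06, adjusted p 6.37e-08). Ptges, which converts its product to prostaglandin E2, was higher by log2 0.50 ± 0.06, and the macrophage growth factor gene Csf1 by 0.31 ± 0.05. Without T23 alone replicate 2, 3 genes of this list were called higher.

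Hypoxia-inducible genes and glycolytic enzymes made up the broadest group of increases. Of 24 hypoxia-response genes tested, 16 were called higher and none lower, with a median log2 fold change of 0.35. Of 21 glycolysis genes, 16 were called higher and none lower, with a median of 0.27. The lists share Pdk1. Hif1a, which encodes the oxygen-regulated subunit of the HIF-1 factor, was itself higher, at 134, 143 and 134 CPM alone and 215, 188 and 228 CPM in co-culture (log2 0.62 ± 0.08, adjusted p 7.95e-06). Adm, the gene of the vasodilator adrenomedullin, went from 210.1, 174 and 211 CPM to 329, 364 and 324 CPM, and its groups were well apart (log2 0.77 ± 0.08, adjusted p 7.48e-07). The carbonic anhydrases of the cell surface, Car9 (2.19, 1.74 and 1.68 CPM to 4.33, 4.73 and 3.72 CPM, log2 1.18 ± 0.22) and Car12 (0.688, 0.472 and 1.18 CPM to 1.96, 2.71 and 2.59 CPM, log2 1.63 ± 0.33), had the largest folds at low levels.

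Enzymes of the pathway moved by less, and at high levels. Slc2a3, a glucose transporter, rose from 15.3, 13.1 and 16.3 CPM to 23.4, 23 and 24.4 CPM (log2 0.66 ± 0.12, adjusted p 0.000546). Pfkfb3, whose product sets the level of the main activator of phosphofructokinase, was higher by log2 0.56 ± 0.08 and the isomerase gene Gpi1 by 0.49 ± 0.09. Gapdh had 1310.4 ± 45.6 CPM alone and 1597 ± 68.9 CPM in co-culture (SD, n = 3; log2 0.29, adjusted p 0.00835), Pkm 2069 ± 41.5 and 2532 ± 55.5 CPM (0.29, 0.000853), and Ldha 1588 ± 101 and 1882 ± 39 CPM (0.25, 0.0215). Eno2, a glycolytic enzyme used as a neuronal marker, did not pass (log2 0.04 ± 0.08, adjusted p 0.835). The number of glycolysis genes called higher was 6 without T23 alone replicate 2, 8 without Sparc-deficient replicate 2, 10 without T23 alone replicate 1 and 12 to 16 without any other. For the hypoxia list it was 10 without T23 alone replicate 2 and 13 or 14 otherwise. Within T23 cells alone, replicate 2 had the lowest value of Adm and Slc2a3, and replicates 1 and 3 were closer to the co-cultures for these genes. This order did not hold throughout, as Hif1a was highest in replicate 2 and Car9 lowest in replicate 3.

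**Figure D3:**
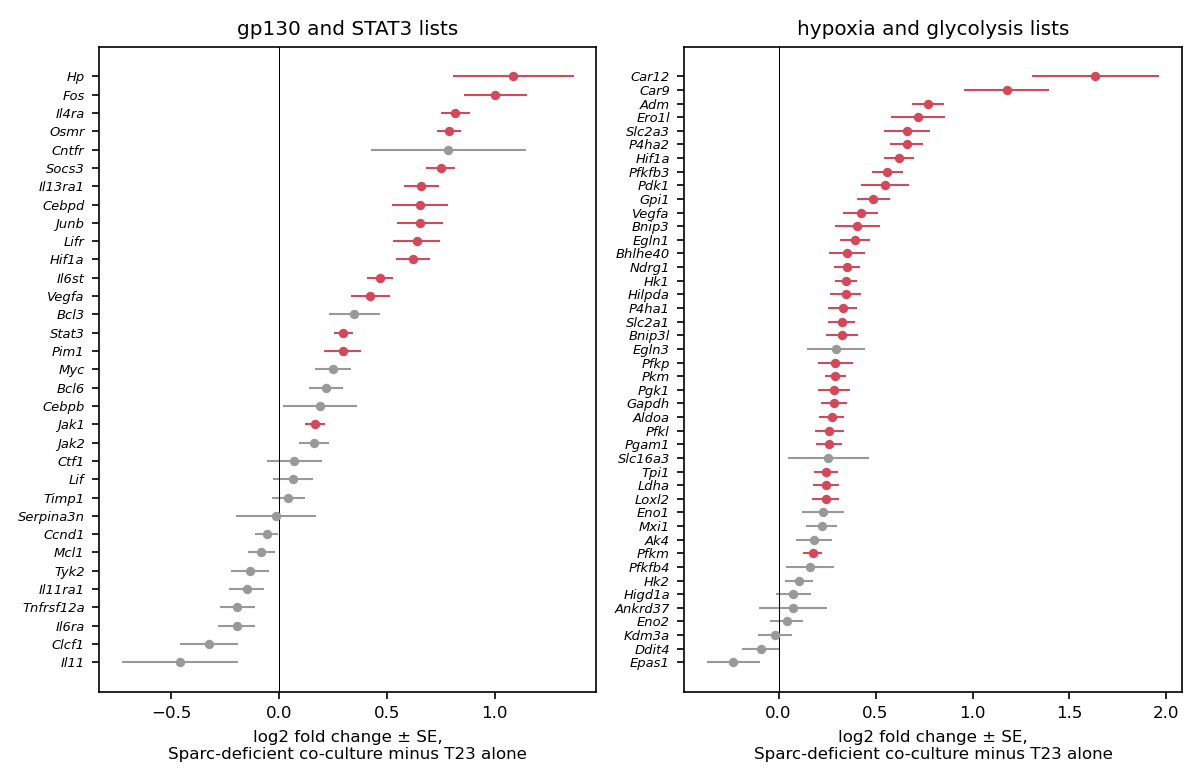
Log2 fold change ± SE, Sparc-deficient co-culture minus T23 alone, of each tested gene of the gp130 and STAT3 lists (left) and of the hypoxia and glycolysis lists (right). Red marks genes called at an adjusted p under 0.05 and grey those not called; all red points lie to the right of 0, with Hp and Car12 at the top.

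Upstream windows of P4ha2, a collagen prolyl hydroxylase that HIF-1 is known to induce, and of Car9 are shown, since each has 1 match to ACGTG, the core of the hypoxia response element (capitals, on either strand and so CACGT where it lies on the other). The matches lie 74 and 14 bases from the start. The windows are from RefSeq GRCm38.p6, chr11:54100674-54100923 and chr4:43506776-43507025, both plus strand.
P4ha2: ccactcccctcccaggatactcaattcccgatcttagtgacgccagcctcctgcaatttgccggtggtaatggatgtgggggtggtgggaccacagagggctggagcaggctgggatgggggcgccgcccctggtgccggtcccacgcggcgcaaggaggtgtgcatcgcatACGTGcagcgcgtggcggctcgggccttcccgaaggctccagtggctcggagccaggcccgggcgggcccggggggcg
Car9: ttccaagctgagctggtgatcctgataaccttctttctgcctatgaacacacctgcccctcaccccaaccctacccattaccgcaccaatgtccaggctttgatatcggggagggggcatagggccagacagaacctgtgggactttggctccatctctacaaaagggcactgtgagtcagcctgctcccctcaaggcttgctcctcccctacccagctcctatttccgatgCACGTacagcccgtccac
Of 25 hypoxia and glycolysis genes called higher that had a window, 16 held ACGTG (64.0%), as did 7 of the 12 that were tested and not called (58.3%). The share was 25.2% over all 10014 tested genes with a window, 24.3% in all genes called higher and 25.7% in all called lower. Called and uncalled members of these lists thus held the motif at similar shares, and no test was made of them.

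Genes of collagen processing shared in the increase. Of 23 collagen-modifying genes tested, 12 were called higher and 1 lower, with a median of 0.16. P4ha2 had 216, 195 and 216 CPM alone and 324, 353 and 313 CPM in co-culture (log2 0.66 ± 0.08, adjusted p 1e-05). The lysyl oxidase-like gene Loxl3, whose product cross-links collagen, rose from 132, 127 and 129 CPM to 193, 184 and 191 CPM, with little spread within either group (log2 0.55 ± 0.05, adjusted p 1.54e-08). Plod1, a lysyl hydroxylase (0.39 ± 0.06), and Bmp1, the procollagen C-proteinase (0.26 ± 0.05), were called higher, while the prolyl hydroxylase gene P4ha3 was called lower (49.3, 46.2 and 48.9 CPM to 34.1, 41.7 and 34.9 CPM; log2 -0.39 ± 0.08). Of these genes P4ha1, P4ha2 and Loxl2 also stand in the hypoxia list. When any of the 6 libraries was left out, 4 to 8 were called higher, the fewest without T23 alone replicate 2.

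Collagen chains themselves moved both ways. Col3a1, a fibrillar collagen, went from 5063, 4839.6 and 4849 CPM to 5714, 5720.5 and 5726 CPM, a small change well beyond its spread (log2 0.22 ± 0.05, adjusted p 0.0029), and Col12a1, a chain that decorates fibrils, was higher by log2 0.30 ± 0.06. Col8a2 (ENSMUSG00000056174, chromosome 4, 126286793 to 126314330), a short-chain network collagen, fell from 11.5, 9.20 and 9.03 CPM to 3.65, 3.64 and 2.76 CPM (2.97-fold lower, log2 -1.57 ± 0.14, adjusted p 6.37e-08). The highest co-culture value of Col8a2 was below the lowest of T23 cells alone by more than the range of either group. Col27a1 was lower by log2 -0.39 (SE 0.08). In all, 4 of 24 tested collagen genes were called higher and 3 lower, and 2 were called higher without T23 alone replicate 1 or 2. Elastic-fibre genes also diverged, with Fbn1 (fibrillin-1) at 569 ± 32.7 CPM alone and 737 ± 33.6 CPM in co-culture (SD, n = 3; log2 0.37), Mfap5 higher (log2 0.50 ± 0.08) and Mfap4 lower (24.7, 22 and 23.6 CPM to 10.4, 11.2 and 11.9 CPM; log2 -1.07 ± 0.09, adjusted p 1.87e-08).

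Matricellular genes, the class of Sparc, split, with 8 of 24 tested called higher and 5 lower. Sparcl1 (ENSMUSG00000029309, chromosome 5, 104079111 to 104113733), the closest relative of Sparc, went from 40.7, 32.6 and 33.4 CPM to 15.4, 17.3 and 14.4 CPM. Its highest co-culture value was well below the lowest of T23 cells alone (log2 -1.18 ± 0.08, adjusted p 1.22e-09). Smoc2, a more distant relative, was lower at 3.18, 3.68 and 3.85 CPM alone and 1.60, 0.887 and 0.833 CPM in co-culture (log2 -1.68 ± 0.21, adjusted p 6.07e-06). Mgp, matrix Gla protein, an inhibitor of calcification, fell from 169, 153 and 173 CPM to 75.6, 91.1 and 62.5 CPM (log2 -1.11 ± 0.10, adjusted p 6.09e-08), and Ccn3 from 16.5, 14.2 and 14.8 CPM to 8.57, 7.24 and 9.64 CPM (-0.83 ± 0.13). On the other side stood Spp1, the gene of osteopontin, at 567, 593 and 531 CPM alone and 1043, 897 and 966 CPM in co-culture (log2 0.78 ± 0.06, adjusted p 1.1e-08). Ccn1 and Ccn2, matricellular targets of YAP and TGF-beta signalling, were higher by log2 0.56 ± 0.07 and 0.35 ± 0.08, and the tenascin gene Tnc by 0.37 ± 0.06. Within the CCN family the changes therefore went in both directions, Ccn5 (log2 1.23, adjusted p 0.000372) being higher and Ccn3 lower.

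Proteases of the matrix and their receptors were mostly higher where called. The aggrecanase genes Adamts9 (22.6, 21.8 and 22.9 CPM to 40.8, 40.1 and 42.2 CPM, log2 0.87 ± 0.07), Adamts5 (0.55 ± 0.05) and Adamts1 (0.42 ± 0.06) were raised, and Plat, tissue plasminogen activator, by 0.39 ± 0.05. The protease inhibitor gene Serpine2 was lower (log2 -0.45 ± 0.06). In all, 6 of 23 protease and inhibitor genes were called higher and 2 lower, and the counts were the same when any of the 6 libraries was left out. Among integrins and syndecans, 7 of 22 were called higher and 1 lower, with 4 or 5 higher when a library was left out. The laminin receptor chain Itga6 went from 127, 123 and 134 CPM to 189.9, 213 and 203 CPM (log2 0.66 ± 0.06, adjusted p 1.45e-07), the collagen receptor chain Itga11 rose by log2 0.40 ± 0.05, and Itga8, which pairs with integrin beta 1 to bind RGD ligands, fell from 14.5, 13.2 and 13.8 CPM to 8.71, 8.47 and 8.94 CPM (-0.67 ± 0.09).

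Classical class I histocompatibility genes rose while most interferon-stimulated genes did not. H2-K1 had 483, 478 and 486 CPM alone and 656, 642 and 624 CPM in co-culture (log2 0.41 ± 0.06, adjusted p 6.15e-05), and H2-D1 449, 455 and 462 CPM and 627, 592 and 599.7 CPM (0.41 ± 0.06). The non-classical gene H2-Q7 was 2.77-fold higher, from 4.08, 3.91 and 4.44 CPM to 10.6, 11 and 12.8 CPM (adjusted p 6.21e-08). H2-Q6 moved alike (log2 1.36 ± 0.20), but reads of H2-Q6, H2-Q7 and other class I genes can be shared, so their single values are uncertain. Psmb8 (log2 0.35, adjusted p 0.00118), an immunoproteasome subunit, and Tap1 (0.29, 0.0187), which carries peptides to class I molecules, were called higher. Of 21 genes of the list, 8 were called higher and 1 lower, with a median of 0.20, and 5 were called higher without Sparc-deficient replicate 1. Of 28 interferon-stimulated genes, 3 were called higher and 2 lower, and 1 higher and at most 1 lower when any of the 6 libraries was left out. Rtp4 had the firmest call (59, 63.8 and 60.4 CPM to 86, 80.7 and 82.6 CPM, log2 0.44 ± 0.07), and the other 4 (Irf9, Xaf1, Ifit1 and Mx1) each lost theirs in some alternative, with adjusted p up to 0.16.

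Wnt modulators, BMP genes and retinoid genes were also changed. Rspo2, a secreted enhancer of Wnt signalling, fell from 18.3, 18 and 16 CPM to 7.34, 6.45 and 10.1 CPM, its groups well apart (log2 -1.13 ± 0.12, adjusted p 1.15e-06), whereas its paralog Rspo3 was higher at a low level (1.91 ± 0.412 CPM alone, 3.57 ± 0.890 CPM in co-culture, SD, n = 3; log2 0.91 ± 0.19). Their receptor Lgr5 rose 2.08-fold, from 4.51, 4.15 and 4.59 CPM to 7.57, 11.5 and 8.68 CPM (adjusted p 8.39e-05), and the ligand gene Wnt10a 2.40-fold, from 3.09, 2.74 and 3.06 CPM to 8.21, 6.85 and 6.31 CPM (adjusted p 8.2e-06). Axin2, a feedback target of beta-catenin, was lower (17.3, 17.4 and 22.1 CPM to 12.9, 14.8 and 11.9 CPM; log2 -0.52 ± 0.12), with adjusted p 0.00502 and up to 0.057 over the alternatives. The counts were 7 higher and 3 lower of 26 tested. In the BMP list 2 of 22 were called higher and 6 lower, and 1 higher and 4 or 5 lower when any of the 6 libraries was left out. The ligand gene Bmp2 (5.97, 6.23 and 6.76 CPM to 3.74, 4.29 and 2.54 CPM, log2 -0.85 ± 0.16), the antagonist gene Grem1 (735, 724 and 687 CPM to 501, 531 and 529 CPM, log2 -0.46 ± 0.05), and the BMP targets Id1 (-0.82 ± 0.12) and Id3 (-0.53 ± 0.11) were lower.

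Of 15 retinoid genes tested, 8 were called higher and none lower, with a median of 0.30. Dhrs3, a retinaldehyde reductase that retinoic acid induces, went from 7.91, 6.79 and 7.31 CPM to 17.7, 19.8 and 17.1 CPM, the groups far apart (log2 1.31 ± 0.10, adjusted p 8.02e-09). Rarb, a receptor gene and target of retinoic acid, rose at a low level (0.771 ± 0.178 CPM to 1.65 ± 0.491 CPM, SD, n = 3; log2 1.09 ± 0.29, adjusted p 0.016). Enzymes of the path, Rdh10 (log2 0.32 ± 0.06) and Aldh1a1 (0.40 ± 0.09), were higher by less. Leaving out any of the 6 libraries left 6 or 7 called higher. With wild-type fibroblasts Rarb stood at 1.89 ± 0.0680 CPM, and it was not called between the co-cultures (log2 -0.19, adjusted p 0.691). Rdh10 (0.29) and Aldh1a1 (0.64) were called higher with Sparc-deficient than with wild-type fibroblasts.

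Of 18 listed luminal epithelial markers, 13 were too low to test, among them the defining genes Epcam (at most 1 count per library in these 6), Cdh1 (0 to 7), Foxa1 (2 to 7) and Krt8. Krt8, a luminal keratin, had 9, 6 and 7 counts alone and 4, 0 and 5 in co-culture, every co-culture count below every count of T23 cells alone. Of the 5 tested, 3 were called higher and none lower, also when any of the 6 libraries was left out. Krt7, a simple-epithelium keratin, went from 10.3, 11.8 and 10.1 CPM to 25, 24.8 and 22.4 CPM with no overlap between the groups (log2 1.17 ± 0.09, adjusted p 7.86e-09). Krt19 rose from 8.68, 10.1 and 9.82 CPM to 15.6, 18.4 and 18 CPM (log2 0.86 ± 0.16, adjusted p 0.000837), and the mucin gene Muc1 from 1.85, 2.26 and 1.68 CPM to 4.15, 3.05 and 4.56 CPM (1.02 ± 0.17). The cornified-envelope gene Sprr1a was 2.37-fold higher (59.1, 54.3 and 66.6 CPM to 148, 147 and 132 CPM, adjusted p 6.29e-06). Among neuroendocrine markers, 1 of 11 tested was called, which is near the share of all genes tested (9.74%). Nefl, a neurofilament gene, had 0.344, 0.189 and 0.444 CPM alone and 1.32, 0.788 and 1.40 CPM in co-culture (log2 1.84 ± 0.33, adjusted p 0.000646), from 4 to 9 and 16 to 32 counts. Ncam1 did not pass (133, 132 and 134 CPM, 141, 146 and 143 CPM; log2 0.11 ± 0.07, adjusted p 0.421), although its groups did not overlap. Against the wild-type co-culture (122 ± 7.90 CPM, SD, n = 3) Ncam1 was called higher (log2 0.23, adjusted p 0.0363). It lost that call in some alternatives, as without wild-type replicate 2 (adjusted p 0.146). Cplx2 of the same list was called lower against the wild-type co-culture (-0.42, 0.0130). No read of Chga was counted in any of the 6 libraries, a floor of 0.132 to 0.152 CPM, and Syp had 0 to 4 counts and could not be tested. Among transcription factors and junction genes of epithelial-mesenchymal transition, 3 of 15 were called higher and 2 lower, and all 5 (Cldn1, Fn1, Zeb1, Prrx1 and Twist2) lost the call in some alternative, with adjusted p up to 0.18.

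**Figure D4:**
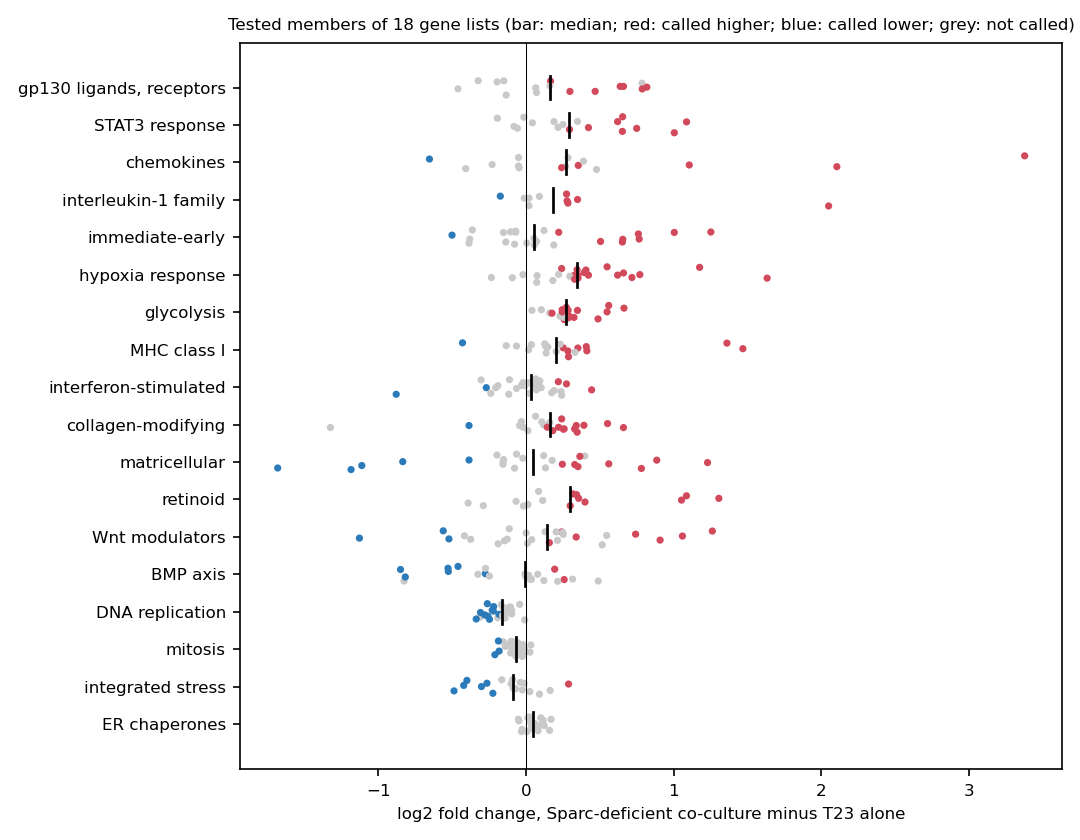
Log2 fold change, Sparc-deficient co-culture minus T23 alone, of every tested member of 18 gene lists, with red for genes called higher, blue for called lower and grey for not called, and a bar at each list's median. The hypoxia, glycolysis, retinoid and STAT3 medians lie between 0.27 and 0.35, DNA replication lies below 0, and the ER chaperones cluster close to 0 with no call.

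DNA replication genes were lower by small amounts. Of 28 tested, 10 were called lower and none higher, with a median of -0.16. Tyms, thymidylate synthase, went from 43.8, 44.1 and 45 CPM to 38.3, 35.6 and 31.5 CPM (log2 -0.34 ± 0.07, adjusted p 0.00136) and Rrm2, a ribonucleotide reductase subunit, from 85, 86.2 and 86.1 CPM to 72.4, 75 and 73.5 CPM (-0.22 ± 0.05). The helicase gene Mcm5 was lower by log2 -0.26 ± 0.07 (adjusted p 0.0191). These calls were fragile, with 2 genes left without T23 alone replicate 3, 3 without T23 alone replicate 1 or Sparc-deficient replicate 3, 4 without Sparc-deficient replicate 2, 5 without T23 alone replicate 2, and 8 without Sparc-deficient replicate 1. Mitosis genes had 3 of 26 called lower (3.65% of all genes tested were), and at most 1 when any library was left out. In the integrated stress list 6 of 18 were called lower, among them Atf5 (162, 174 and 173 CPM to 149, 138 and 137 CPM, log2 -0.26 ± 0.06) and the amino acid transporter Slc7a5 (-0.30 ± 0.06). Ppp1r15a, the phosphatase subunit that ends this response, was higher (0.29 ± 0.07). Without Sparc-deficient replicate 3, 2 were called lower, and 4 without replicate 1.

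Large decreases outside these lists involved secreted and membrane proteins of varied function. Slc26a7 (ENSMUSG00000040569, chromosome 4, 14502430 to 14621805), an anion exchanger, fell from 8.42, 8.35 and 8.24 CPM to 2.10, 2.27 and 1.84 CPM, with tight values in both groups (4.04-fold lower, log2 -2.01 ± 0.16, adjusted p 7.86e-09). Kctd12, an auxiliary subunit of GABA-B receptors, went from 77.8, 81.4 and 69.3 CPM to 29.2, 26.6 and 35.2 CPM (log2 -1.33 ± 0.11, adjusted p 1.1e-08). Akr1c14, an aldo-keto reductase that acts on steroids, was at 27.7, 24.6 and 24 CPM alone and 10.9, 11.6 and 13 CPM in co-culture (log2 -1.10 ± 0.10, adjusted p 6.09e-08). Each of these showed no overlap. The ferritin receptor gene Scara5 (32.6, 33.6 and 28.7 CPM to 15.5, 15.6 and 16.3 CPM) and the imprinted zinc-finger gene Plagl1 (18.1, 17.7 and 17.8 CPM to 8.48, 9.80 and 8.94 CPM) were lower as well (adjusted p 1.53e-07 and 1.1e-08). Ptn, which encodes the growth factor pleiotrophin, fell from 108, 122 and 93 CPM to 68, 47.9 and 60.2 CPM (-0.87 ± 0.13) and the proteoglycan gene Aspn from 86.6, 77.1 and 72.7 CPM to 42, 44.2 and 45.1 CPM (-0.85 ± 0.12). Fap, a protease gene used as a marker of activated fibroblasts, was also lower, from 4.56, 3.54 and 4.69 CPM to 1.92, 2.12 and 2.72 CPM (-0.92 ± 0.18, adjusted p 0.00192). Thy1, another fibroblast marker, went the other way, from 82.7, 85 and 88.8 CPM to 134, 125 and 128 CPM (0.59 ± 0.07).

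Growth factor and hormone genes showed single changes. The EGF receptor ligands Ereg (9.84, 8.25 and 9.43 CPM to 13.2, 15.6 and 13.9 CPM, log2 0.63 ± 0.12) and Tgfa (0.41 ± 0.09) were higher and the feedback inhibitor Spry2 lower (-0.38 ± 0.07). These were 3 calls among 21 tested, where 9.74% of all genes tested were called. Igfbp3, a binding protein of insulin-like growth factors, rose from 67.8, 71.9 and 73.5 CPM to 115, 134 and 96.7 CPM (0.70 ± 0.07, adjusted p 7.87e-07), and the secreted glycoprotein gene Stc1 from 8.72, 7.73 and 9.43 CPM to 15.5, 13.1 and 16.2 CPM (0.79 ± 0.11). Cyp1b1, a target of the aryl hydrocarbon receptor, went from 19.8, 22.5 and 21.2 CPM to 36.9, 36 and 38.1 CPM (0.81 ± 0.07, adjusted p 6.37e-08). Of 7 genes of that receptor's list tested, 2 were called higher and none lower. Another target, Cyp1a1, was lower at a low level and not called (-0.86 ± 0.33, adjusted p 0.116). Hsd11b1, which activates glucocorticoids, rose by 0.65 ± 0.11, and the receptor gene Notch3 by 0.52 ± 0.06. The clock output factor Hlf went from 87.1, 84.5 and 83.6 CPM to 121, 130.3 and 136 CPM (0.60 ± 0.05), 1 of 6 circadian genes called higher of 17, a count that was 2 without Sparc-deficient replicate 2 or T23 alone replicate 1 or 2.

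Androgen-responsive genes, which matter in prostate cells, had 4 of 11 tested called higher and 2 lower, and none lower without T23 alone replicate 2. Sgk1, a kinase gene that androgens and glucocorticoids induce, rose from 281, 287 and 283 CPM to 391, 409 and 401 CPM (log2 0.50 ± 0.05, adjusted p 3.11e-07). Steap2, a metalloreductase of prostate epithelium, was higher by log2 0.32 ± 0.06 and Ndrg1, which hypoxia also induces, by 0.35 ± 0.07. Of 26 TGF-beta response genes, 8 were called higher and Tgfb3 lower (152, 140.1 and 150.01 CPM to 105, 128 and 115 CPM, log2 -0.35 ± 0.06). The co-receptor gene Tgfbr3 was higher (272, 275 and 263 CPM to 349, 355 and 408 CPM, log2 0.46 ± 0.06), and 5 to 7 of the list were called higher when any of the 6 libraries was left out. Of 22 sterol synthesis genes 6 were called higher, among them lanosterol synthase, Lss (log2 0.24 ± 0.05), and this count fell to between 2 and 4 when a library was left out. Axon guidance genes had 7 of 36 called higher and 3 lower, and Sema5a, a transmembrane semaphorin, was higher by 0.31 ± 0.05. Without T23 alone replicate 2, 2 of these were called higher.

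Several housekeeping classes had no call in the fit of all 18 libraries. None of 20 ER chaperone genes was called (4 at an unadjusted p under 0.05; 1 by DESeq2), and Hspa5, the main ER chaperone, was at 1383, 1367 and 1362 CPM alone and 1457, 1412 and 1486 CPM in co-culture (log2 0.08 ± 0.05, adjusted p 0.359). None of 81 cytosolic ribosomal protein genes was called (3 at that threshold; 1 by DESeq2), nor any of 15 heat shock genes (3 at that threshold; 0 by DESeq2). With only the compared groups in the edgeR fit, 3 ER chaperone genes were called higher, 1 ribosomal protein gene higher and 5 lower, and 2 heat shock genes higher and 1 lower. Of 7 mitochondrially encoded genes tested, mt-Co1, a subunit of cytochrome oxidase, was called higher, at 2325, 2182 and 3583 CPM alone and 3056, 7025 and 7049.6 CPM in co-culture. Its groups overlapped, since Sparc-deficient replicate 1 lay within the range of T23 cells alone (log2 1.08 ± 0.30, adjusted p 0.0245, and up to 0.12 over the alternatives). With mitochondrial genes left out, 1332 genes were called in place of 1325.

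The wild-type co-culture shows which of these levels differ between the 2 kinds of fibroblast. The kinds may differ in more than Sparc, and line and genotype cannot be told apart here. The difference between co-cultures was tested directly, and 1566 of 13600 genes were called (11.5%), 914 higher with Sparc-deficient fibroblasts (6.72%) and 652 lower (4.79%). It shares the 3 Sparc-deficient libraries with the comparison to T23 cells alone, so the values are given side by side. For Ppbp the wild-type co-culture stood at 1.30, 1.02 and 0.860 CPM, at the level of T23 cells alone (difference between co-cultures log2 3.32 ± 0.23, adjusted p 1.45e-09). Il33 had 4.06, 3.54 and 4.05 CPM there (difference 2.23 ± 0.16), Slc26a7 8.07, 7.54 and 7.38 CPM (-1.89 ± 0.16) and Sparcl1 41.1, 36.8 and 40.9 CPM (-1.33 ± 0.08). In each of these the co-cultures were far apart and the wild-type one lay close to T23 cells alone.

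For other genes the wild-type co-culture lay between the other groups, and its difference from T23 cells alone was not tested. Dhrs3 had 10.5, 12.5 and 13 CPM with wild-type fibroblasts, between T23 cells alone and the Sparc-deficient co-culture (difference log2 0.59 ± 0.10, adjusted p 0.000185). Mgp, at 113, 105 and 105 CPM, also lay between them (-0.49 ± 0.10, 0.0019), as did Col8a2 at 7.45, 6.56 and 7.23 CPM (-1.08 ± 0.15) and Dusp1 at 58.6, 61.2 and 55.3 CPM (0.86 ± 0.07). Of 1325 genes called against T23 cells alone, 831 (62.7%) were also called between the co-cultures, against 11.5% of all genes tested. Both comparisons share the 3 Sparc-deficient libraries. Of the 189 called genes named by rule, 28 were not called between the co-cultures, among them those that follow. Ranbp3l, at 2.58, 6.37 and 1.48 CPM in T23 cells alone, had 12.8, 16 and 10.3 CPM with wild-type and 19.2, 8.13 and 23.3 CPM with Sparc-deficient fibroblasts (log2 0.37 ± 0.30 between co-cultures, adjusted p 0.484). Sparc-deficient replicate 2 was the lowest of the 6 co-culture libraries for this gene. The matrix gene Fbln7 (difference 0.05 ± 0.11, adjusted p 0.842), Nefl (-0.03 ± 0.26, 0.958), the Wnt inhibitor gene Apcdd1 (-0.10 ± 0.09, 0.525), Axin2 (-0.04 ± 0.12, 0.87) and Id3 (-0.10 ± 0.11, 0.637) likewise stood at similar values in both co-cultures. A p above the threshold does not show that these levels are equal.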

How the data were processed

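Poly(A) RNA-seq had been made of T23 cells, per the labels with a stranded dUTP kit with sequencing on a NextSeq 550. Each library has a table of unnormalised gene counts, as deposited. Per the submitters' processing notes, the authors aligned with STAR 2.6.1d to GRCm38 after cutadapt 2.9 and counted with featureCounts 2.0; bcl2fastq 2.20.0.422, FastQC 0.11.9 and DESeq2 are named too. The gene annotation, the strand option and the handling of multi-mapping reads are not given in the sources used here, so counts of overlapping, antisense or near-identical genes are uncertain. Of 55487 gene identifiers, 55141 matched a symbol. Gene coordinates come from GENCODE M21 (GRCm38).

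All 18 libraries entered a quasi-likelihood fit with a mean per group (edgeR 4.0.16, limma 3.58.1, R 4.3.3) after TMM scaling and filterByExpr (minimum count 10), which left 13600 genes. Residual degrees of freedom were 12, and the biological coefficient of variation was 7.03%. Groups outside a contrast also served for the spread. They include T23 cells given enzalutamide, and co-cultures labelled with human fibroblasts given enzalutamide with or without isoliquiritigenin. Contrasts were tested two-sided by F tests, and p-values adjusted by Benjamini-Hochberg over the 13600 genes. A gene was called at an adjusted p under 0.05. SE was taken as the absolute log2 change divided by the root of its F value. A count of 0 allows up to 3 counts, and floors cover counting error only. The script was tested on simulated data.

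The comparison, its members and the gene lists were chosen with earlier results of these data known. Lists are described by counts and medians, with no test of their own. Genes named by rule are Chga, Eno2, Hspa5, Il6, Ncam1, Sparc and Syp, the 15 largest called increases and decreases whose mean reached 5 CPM with separate groups, up to 4 called genes by smallest p per list and direction, and the 5 smallest p per direction. Other genes named were chosen after their values were seen. Some genes that met the rule are counted in the totals and not reported here by name. The labels number the replicates but do not say that equal numbers pair libraries, and the main fit used no pairing. Same-number correlations were -0.0667 to -0.0389 against T23 alone and -0.0215 to 0.0589 between co-cultures. With 3 libraries per group they cannot decide whether libraries were paired. Motifs were searched on both strands of the 250 bases upstream of RefSeq starts. The alternatives were DESeq2 1.42.0, RLE scaling, no filter, other sets of libraries, a replicate block, and leaving out each replicate.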

Additional observations from a re-analysis of the deposited data

Results flagged for a closer look

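In 21 of the genes named by rule and reported here, all libraries of the Sparc-deficient co-culture lay on 1 side of T23 cells alone and all libraries of the wild-type co-culture on the other, without overlap, and the difference between the co-cultures was called by edgeR. The same order without overlap was seen in 108 of the 1325 genes called against T23 cells alone (8.15%) and in 307 of all 13600 tested (2.26%). Both comparisons use the same 3 Sparc-deficient libraries, and the named genes were chosen by their values in those. Some genes stood below T23 cells alone with wild-type and above it with Sparc-deficient fibroblasts. Among them Fos had the widest gap, at 2.24, 2.12 and 1.62 CPM with wild-type fibroblasts, 3.70, 3.35 and 3.70 CPM in T23 cells alone and 7.07, 7.98 and 6.57 CPM with Sparc-deficient fibroblasts (log2 difference between co-cultures 1.84 ± 0.16). Cxcl1 (1.37), Cebpd (1.19), Zfp36 (1.02), Ier3 (1.01), Junb (0.96), Ptgs2 (0.93) and Socs3 (0.90) were ordered the same way. So were the matricellular genes Ccn1 (0.88) and Ccn2 (0.76), the microfibril gene Mfap5 (0.86), the complement protease gene Masp1 (0.78) and the kinase gene Sgk1 (0.59). The Wnt receptor gene Ryk (0.39), the clock gene Nr1d1 (0.38) and the growth factor gene Csf1 (0.36) completed that group.

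In the opposite order, lower with Sparc-deficient and higher with wild-type fibroblasts, stood Twist2 (-0.54), Atp1b1 (-0.50), the interferon-induced gene Ifit1 (-0.50), Nrp2 (-0.36) and the mitotic kinesin gene Kif11 (-0.29). Each of the 21 differences was called (largest adjusted p 0.000843, for Kif11). Twist2, Atp1b1, Ifit1, Nrp2, Kif11 and Nr1d1 lost their call against T23 cells alone in some alternative.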

How the results depend on the processing

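Against T23 cells alone, 1325 genes were called, and 1216 to 1428 with no filter, RLE scaling, DESeq2, no mitochondrial genes or the replicate block. With the replicate block 1216 were called (1441 between co-cultures). It is not known whether equal replicate numbers pair the samples, so the lower count was not read as a weaker effect. With only these groups in the fit 2188 were called, and with only the 9 drug-free libraries, an alternative added after seeing the data, 1974. Without the library rich in ribosomal RNA 1724 were called. That library, replicate 2 of T23 cells given enzalutamide, is outside the comparison but was in the main fit. Its top gene, CT010467.1, took 26.4% of its counts. Leaving out a replicate of the compared groups gave 743 to 1003, with fewer samples in the fit. Between the co-cultures 1566 were called, 1441 to 2085 under the planned settings that keep all replicates compared, 857 to 1352 with a replicate left out, and 2437 with only the drug-free libraries. Of 189 genes named by rule and called, 135 were called in every alternative and 188 by DESeq2. The other 54 lost their call when some library was left out, and none of the 189 changed sign. Uncalled differences near 0 changed sign with a replicate left out. They ranged from -0.010 to 0.081 on the log2 scale for Eno2 against T23 alone, and between co-cultures from -0.13 to 0.031 for Axin2, -0.029 to 0.19 for Fbln7, -0.18 to 0.18 for Nefl and -0.13 to 0.019 for P4ha3.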
